A study of Mus musculus with 12 samples.

Results

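The 10 genes described here are protein-coding, lie on mouse chromosome 2 and start within 10 Mb of Id1: Dstn, Rrbp1, Snx5, Mgme1, Dtd1, Rin2, Cd93, Pygb, Zcchc3 and H13. They were taken by symbol from a table of 55450 genes, of which 14346 had enough reads to be tested, and 10 of the 10 were among those tested. The tested genes within 10 Mb of Id1 numbered 160. The 10 were chosen by their log2 fold changes, lower in the libraries with an Id1-null label, so their values in the comparisons of that label are given as a description, without a test. The question was whether genes near Id1 shift with the Id1 label both when Tet2 is intact and when Tet2 is lost. For the 10 the choice fixed the answer, so it is not read from them.

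The libraries came from Lin- ckit+ marrow cells, the lineage-negative, Kit-positive fraction that holds stem and progenitor cells. Only donor-derived cells were taken, from recipients of a competitive bone marrow transplant, in which donor and competitor cells share 1 host. The donors were labelled WT (both genes intact), Tet2KO (Tet2 null), Id1KO (Id1 null) or dKO (Tet2 null and Id1 null), with 3 libraries each and 12 in all. How each allele was made, whether its deletion is confined to a cell type, the mouse strains, ages and the number of donors and recipients behind a library are not given in the sources used here. Total counts ran from 19024860 to 19959153 for WT, 16176655 to 18386986 for Tet2KO, 17994729 to 19139363 for Id1KO and 15706368 to 16881634 for dKO. The titles give the 3 libraries of a genotype a shared sample number, so they may be repeats of 1 sample, and p-values then measure only the spread between these libraries.

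Id1 encodes a helix-loop-helix protein without a DNA-binding domain, which pairs with E proteins and keeps them off DNA; Tet2 encodes an enzyme that oxidises methylated cytosine. A mouse allele made by gene targeting is often bred onto another strain, and DNA beside the target then stays with it, the more so the closer it lies. Genes in such a stretch can be expressed at the level of the strain the stretch came from, whatever the targeted gene does. The values used here hold expression and no genotype of the flanking DNA, so an effect of the Id1 allele and an effect of DNA carried with it cannot be told apart in these libraries.

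RNA of the 2 targeted genes did not follow the labels. Id1 (ENSMUSG00000042745.9, plus strand, chr2:152736251-152737410 of GRCm38) had its lowest level in WT, at 1.47 ± 0.268 CPM (mean ± SD, n = 3; CPM scale a gene's count to its library's normalised total). It read 3.86 ± 0.421 CPM for Tet2KO, 3.96 ± 0.342 for Id1KO and 3.93 ± 0.501 for dKO, on 24 to 79 counts per library. Tet2 on chromosome 3 averaged 99.3 CPM (WT), 129.9 (Tet2KO), 92.0 (Id1KO) and 118 (dKO), so it was higher where it is labelled null. The deleted parts are not given in the sources used here, so these levels cannot check the labels, and every group below means the libraries labelled so. Of the markers that define the sorted cells, Kit read 314 to 377 CPM over the 12 libraries, while mature T cell Cd3e and neutrophil Ly6g stayed at or below 0.127 CPM.

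All 10 genes lie at lower coordinates than Id1, toward the centromere; distances are between the lowest coordinates of 2 genes. By start they lie in the order Dstn, Rrbp1, Snx5, Mgme1, Dtd1, Rin2, Cd93, Pygb, Zcchc3 and H13, from 8.82 Mb (Dstn) to 66.8 kb (H13) away, with a median distance of 7.6 Mb. The first 5, Dstn to Dtd1, share 0.853 Mb of chromosome. Dstn and Rrbp1 are read toward each other, and their ends are 4.07 kb apart. Snx5 and Mgme1 are read from opposite strands and their spans overlap by 244 bases, 206 of them exonic in both, so reads from that overlap could be assigned to either gene. The 10 genes are split between strands, 6 on the plus and 4 on the minus strand.

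The sequences just upstream of 4 of these genes are shown because E proteins, the partners that Id1 blocks, bind short E-box letters. Dstn and Rrbp1 are the farthest pair, Dtd1 is the other gene whose printed stretch holds a match, and H13 is the gene nearest Id1. Each line runs 5′ to 3′ toward the start of the gene and holds only bases upstream of its annotated exons, from RefSeq on GRCm38.p6: Dstn chr2:143915081-143915319 (plus strand), Rrbp1 chr2:144011264-144011513 (minus strand), Dtd1 chr2:144599703-144599896 (plus strand) and H13 chr2:152669211-152669460 (plus strand). Capitals mark CAGCTG or CACCTG on either strand, the latter reading CAGGTG on the other.
Dstn: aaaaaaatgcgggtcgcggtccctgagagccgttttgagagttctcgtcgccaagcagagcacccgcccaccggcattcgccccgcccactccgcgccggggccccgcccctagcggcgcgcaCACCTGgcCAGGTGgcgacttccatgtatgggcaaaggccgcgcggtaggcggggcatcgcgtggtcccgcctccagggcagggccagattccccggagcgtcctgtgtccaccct
Rrbp1: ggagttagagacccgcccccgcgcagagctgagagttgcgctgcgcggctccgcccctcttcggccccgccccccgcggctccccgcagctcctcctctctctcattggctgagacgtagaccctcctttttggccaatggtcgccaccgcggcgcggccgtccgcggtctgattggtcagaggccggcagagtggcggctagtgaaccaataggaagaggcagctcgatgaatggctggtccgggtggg
Dtd1: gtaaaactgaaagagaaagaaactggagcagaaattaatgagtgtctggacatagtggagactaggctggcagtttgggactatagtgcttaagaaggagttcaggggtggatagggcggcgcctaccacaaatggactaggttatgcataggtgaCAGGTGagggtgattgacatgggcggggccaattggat
H13: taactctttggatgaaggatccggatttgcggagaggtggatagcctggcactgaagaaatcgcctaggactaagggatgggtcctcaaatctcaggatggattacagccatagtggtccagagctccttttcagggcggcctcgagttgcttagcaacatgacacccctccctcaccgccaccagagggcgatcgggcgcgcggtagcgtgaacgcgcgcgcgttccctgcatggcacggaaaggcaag

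Dstn held 2 matches, 1 on each strand and 2 bases apart, and Dtd1 held 1; the printed stretches of Rrbp1 and H13 held none. Over the full 250 bases before the start, 3 of the 9 genes with an entry held a match: Dstn and Dtd1 for CACCTG and Rin2 for CAGCTG. Of 32851 such windows in the same table, 27.7% held at least 1 match, 13% for CAGCTG and 17.2% for CACCTG. The Rin2 entry lies inside the annotated span of that gene, and the exon-free part of the Snx5 entry lies inside the span of Snx5. For Mgme1 the exon-free part is 9 bases long and also lies inside the span of Snx5. Cd93 is named only. The windows of the 9 genes had a median GC content of 60% and a median of 18 CpG dinucleotides, against 52.4% and 6 over all windows. Those windows were not limited to tested or protein-coding genes, as the 9 are, so nothing is read from the difference.

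Every one of the 10 genes was lower in Id1KO than in WT and lower in dKO than in Tet2KO. The median log2 fold change was -0.39 for Id1KO against WT, against -0.01 over all tested genes, and -0.49 for dKO against Tet2KO, against -0.00 over all tested genes. A gene is called here when its adjusted p in edgeR's quasi-likelihood fit is under 0.05. In Id1KO against WT, 10 of 10 were called lower, where 7.77% of all tested genes were called lower and 7.26% higher, 15% together. In dKO against Tet2KO, 10 of 10 were called lower, where 13.4% of all tested genes were called lower and 13.1% higher, 26.4% together. Genes lower in both made up 3.26% of all tested genes, 468 genes that include these 10, and genes higher in both 2.04%. In each of the 10, all Id1KO libraries lay below all WT and all dKO below all Tet2KO libraries, as in 6.62% of all tested genes. All 6 Id1KO and dKO libraries also lay below all 6 WT and Tet2KO libraries, as in 2.57%. These counts follow from how the genes were picked and support nothing further. The smallest changes among the 10 were those of H13 and Pygb in Id1KO against WT (log2 fold changes of -0.16 and -0.19) and of Dtd1 and Cd93 in dKO against Tet2KO (-0.35 and -0.38). In bulk RNA, fewer cells of a type and less RNA per cell cannot be told apart.

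**Figure D1:**
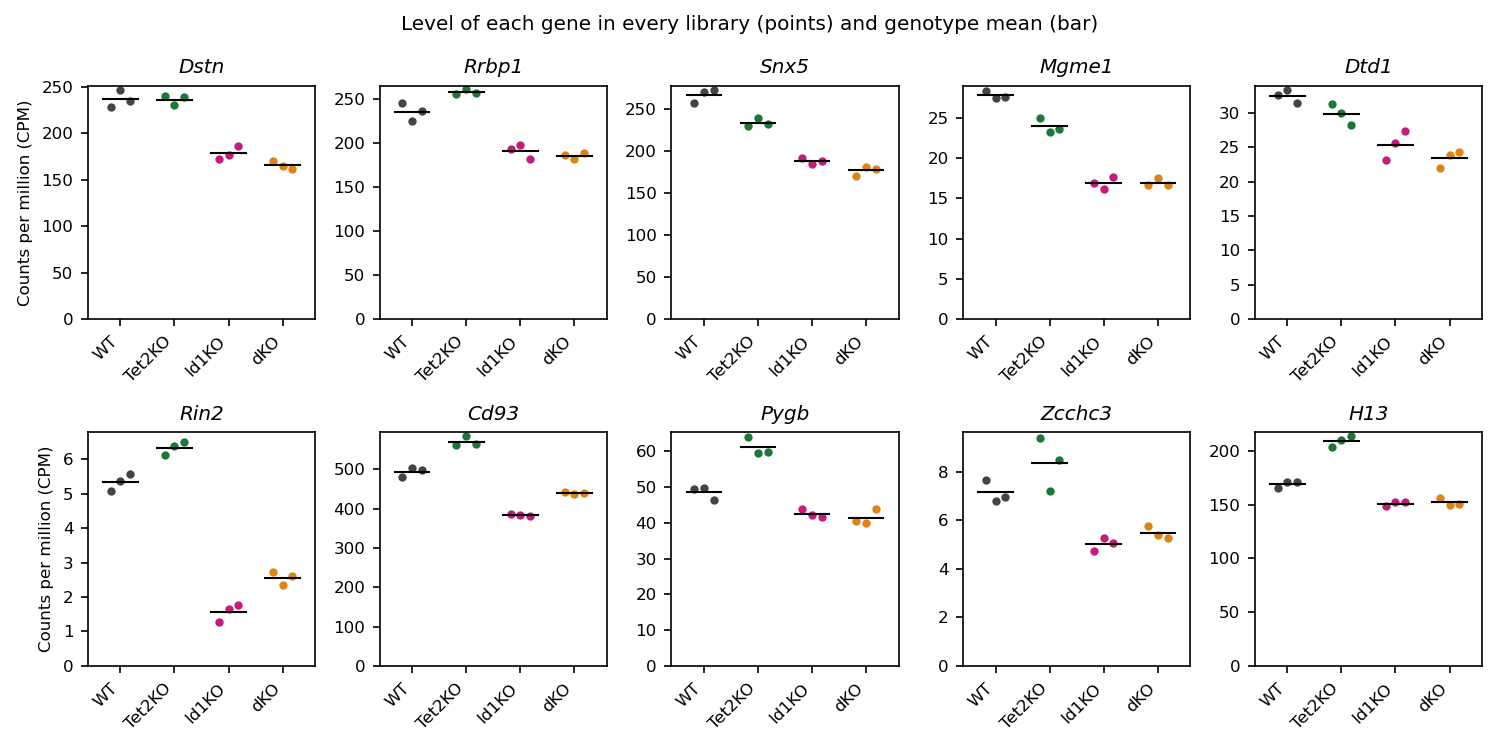
CPM (vertical axis, from 0) of the 10 genes in each of the 12 libraries, with 1 panel per gene, points for libraries and a bar at the genotype mean. In every panel the 6 Id1KO and dKO points lie below the 6 WT and Tet2KO points; the gap is widest, relative to the level, in Rin2 (2.73 against 5.08 CPM) and narrow in Dtd1 (27.4 against 28.2 CPM).

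The actin and endosome genes were Dstn, Snx5 and Rin2. Dstn (ENSMUSG00000015932.8, chr2:143915320-143943324, plus strand) encodes destrin, which cuts and disassembles actin filaments. Its WT libraries read 229, 247 and 235 CPM and its Tet2KO libraries 239.8, 230.2 and 239. Those of Id1KO read 172, 177 and 186 CPM and those of dKO 170.1, 165 and 162. WT and Tet2KO overlapped near 237 CPM and both Id1-null-labelled groups were well below, with dKO libraries under those of Id1KO. Id1KO was 24.7% lower than WT (log2 fold change -0.41, SE 0.0339) and dKO 29.9% lower than Tet2KO (-0.51, SE 0.0347).

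Snx5 (ENSMUSG00000027423.15, chr2:144250123-144270906, minus strand) encodes a sorting nexin that retrieves membrane proteins from endosomes. WT libraries read 257, 271 and 272 CPM and Tet2KO libraries 231, 239 and 232. Id1KO libraries read 191, 185 and 189 CPM and dKO libraries 171, 182 and 179. The 4 genotypes did not overlap and lay in the order WT, Tet2KO, Id1KO, dKO from high to low. Its log2 fold change was -0.50 (SE 0.0303) for Id1KO against WT and -0.40 (SE 0.0312) for dKO against Tet2KO.

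Rin2 (ENSMUSG00000001768.16, chr2:145675215-145887616, plus strand) encodes an exchange factor that loads the early endosome GTPase Rab5. It had the largest fold change of the 10 and a low level, on 23 to 121 counts per library. WT libraries read 5.08, 5.36 and 5.57 CPM and Tet2KO libraries 6.13, 6.37 and 6.52. Id1KO libraries read 1.26, 1.67 and 1.76 CPM and dKO libraries 2.73, 2.33 and 2.60. The order from low to high was Id1KO, dKO, WT and Tet2KO, with no overlap between neighbours. Id1KO was 70.6% lower than WT (log2 fold change -1.77, SE 0.142) and dKO 59.7% lower than Tet2KO (-1.31, SE 0.131). Without Id1KO replicate 1 the first value was -1.63.

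Among the endoplasmic reticulum genes, Rrbp1 (ENSMUSG00000027422.15, chr2:143947395-144011263, minus strand) encodes a membrane protein that holds ribosomes. The WT libraries held 246, 226 and 237 CPM and the Tet2KO libraries 256, 261 and 257. The Id1KO libraries held 194, 198 and 182 CPM and the dKO libraries 186, 182 and 189. Tet2KO was the highest group, and Id1KO and dKO overlapped. Id1KO was 18.9% lower than WT (log2 fold change -0.30, SE 0.0336) and dKO 28.0% lower than Tet2KO (-0.47, SE 0.034).

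H13 (ENSMUSG00000019188.16, chr2:152669461-152708670, plus strand) encodes signal peptide peptidase, which cleaves leftover signal peptides inside the membrane, and is an imprinted gene in mouse. Libraries of WT read 165, 171 and 171 CPM and those of Tet2KO 203, 209.9 and 214. Libraries of Id1KO read 149, 152 and 152 CPM and those of dKO 156, 149.6 and 151. Id1KO and dKO overlapped, while Tet2KO stood above WT. Id1KO was 10.6% lower than WT (log2 fold change -0.16, SE 0.0286) and dKO 27.2% lower than Tet2KO (-0.46, SE 0.0287). Mcts2, a retrogene inside an intron of H13 on the same strand that is also imprinted, had group means from 5.45 ± 0.497 CPM (WT) to 5.96 ± 1.02 CPM (Id1KO). The 4 groups of Mcts2 overlapped, and edgeR's adjusted p was 0.573 for Id1KO against WT and 0.921 for dKO against Tet2KO. Mcts2 was added after its values were seen.

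Cd93 (ENSMUSG00000027435.8, chr2:148436640-148443563, minus strand) encodes a lectin-like surface receptor found on early blood progenitors, monocytes and endothelium. WT libraries read 481, 503 and 499 CPM and Tet2KO libraries 561, 584 and 565. Id1KO libraries read 387, 384 and 382 CPM and dKO libraries 441, 437 and 439. The genotypes did not overlap, in the order Id1KO, dKO, WT and Tet2KO from low to high. Id1KO was 22.2% lower than WT (log2 fold change -0.36, SE 0.026) and dKO 23.0% lower than Tet2KO (-0.38, SE 0.0259). Thbd, a related thrombomodulin gene that begins 4.33 Mb from Id1 beside Cd93, was not called in either comparison, with log2 fold changes of -0.13 (edgeR adjusted p = 0.317) and -0.00 (adjusted p = 0.986), and was added after its values were seen.

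The mitochondrial, tRNA and glycogen genes follow. Mgme1 (ENSMUSG00000027424.11, chr2:144270663-144281227, plus strand) encodes an exonuclease that trims mitochondrial DNA ends. Its WT libraries held 28.3, 27.4 and 27.5 CPM and its Tet2KO libraries 25.0, 23.2 and 23.6. Its Id1KO libraries held 16.9, 16.1 and 17.6 CPM and its dKO libraries 16.6, 17.5 and 16.7. Id1KO and dKO shared a mean of 16.9 CPM, and no library of the other groups lay below 23.2 CPM. Its log2 fold change was -0.72 (SE 0.0547) for Id1KO against WT and -0.50 (SE 0.0579) for dKO against Tet2KO.

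Dtd1 (ENSMUSG00000027430.12, chr2:144599897-144768758, plus strand) encodes a deacylase that removes D-amino acids wrongly joined to tRNA. WT libraries read 32.5, 33.3 and 31.4 CPM and Tet2KO libraries 31.3, 29.9 and 28.2. Id1KO libraries read 23.1, 25.6 and 27.4 CPM and dKO libraries 22.0, 23.9 and 24.3. The highest Id1KO library came close to the lowest Tet2KO library, and Id1KO overlapped dKO. Id1KO was 21.7% lower than WT and dKO 21.4% lower than Tet2KO (log2 fold change -0.35 in both, SE 0.0608 and 0.0644).

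Pygb (ENSMUSG00000033059.7, chr2:150786735-150831758, plus strand) encodes the brain form of glycogen phosphorylase, which releases glucose units from glycogen. The WT libraries read 49.4, 49.7 and 46.4 CPM and the Tet2KO libraries 64.0, 59.6 and 59.9. The Id1KO libraries read 43.8, 42.2 and 41.7 CPM and the dKO libraries 40.5, 39.9 and 43.9. As in H13, Id1KO and dKO overlapped and Tet2KO was the high group. Id1KO was 12.3% lower than WT (log2 fold change -0.19, SE 0.0475) and dKO 32.2% lower than Tet2KO (-0.56, SE 0.0477).

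Zcchc3 (ENSMUSG00000074682.4, chr2:152411955-152415027, minus strand) encodes a zinc finger protein that helps cytosolic sensors bind foreign nucleic acid. On 86 to 157 counts per library, those of WT read 7.67, 6.81 and 6.97 CPM and those of Tet2KO 9.38, 7.21 and 8.46. Those of Id1KO read 4.72, 5.26 and 5.06 CPM and those of dKO 5.77, 5.39 and 5.26. WT overlapped Tet2KO, and both groups labelled Id1 null reached at most 5.77 CPM. Id1KO was 29.8% lower than WT (log2 fold change -0.51, SE 0.113) and dKO 34.4% lower than Tet2KO (-0.61, SE 0.113).

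Per kilobase of exon, the mean level over the 12 libraries ran from 0.350 CPM per kb in Rin2 to 107 in Dstn. Cd93 followed at 70.7 CPM per kb, then Snx5 at 51.9, Rrbp1 at 24.8, H13 at 19.2, Dtd1 at 11.8, Pygb at 10.1, Mgme1 at 6.38 and Zcchc3 at 2.11. The fold changes span genes of very different abundance, and the largest belongs to the least abundant of the 10.

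The 2 comparisons share no library, and their sizes are set side by side here as a description. The change in dKO against Tet2KO less that in Id1KO against WT was -0.37 (SE 0.0675) for Pygb, -0.30 (SE 0.0405) for H13 and -0.17 (SE 0.0478) for Rrbp1, each further below in the comparison with Tet2 lost. These 3 passed the interaction threshold that 14.5% of all tested genes passed (7.03% negative, 7.46% positive), a count from which nothing is read because the choice of genes used the same libraries. In the other 7 the difference ran from -0.11 in Dstn to 0.45 (SE 0.201) in Rin2. In Pygb, H13 and Rrbp1 the levels of Id1KO and dKO overlapped, and it was Tet2KO that lay above WT.

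**Figure D2:**
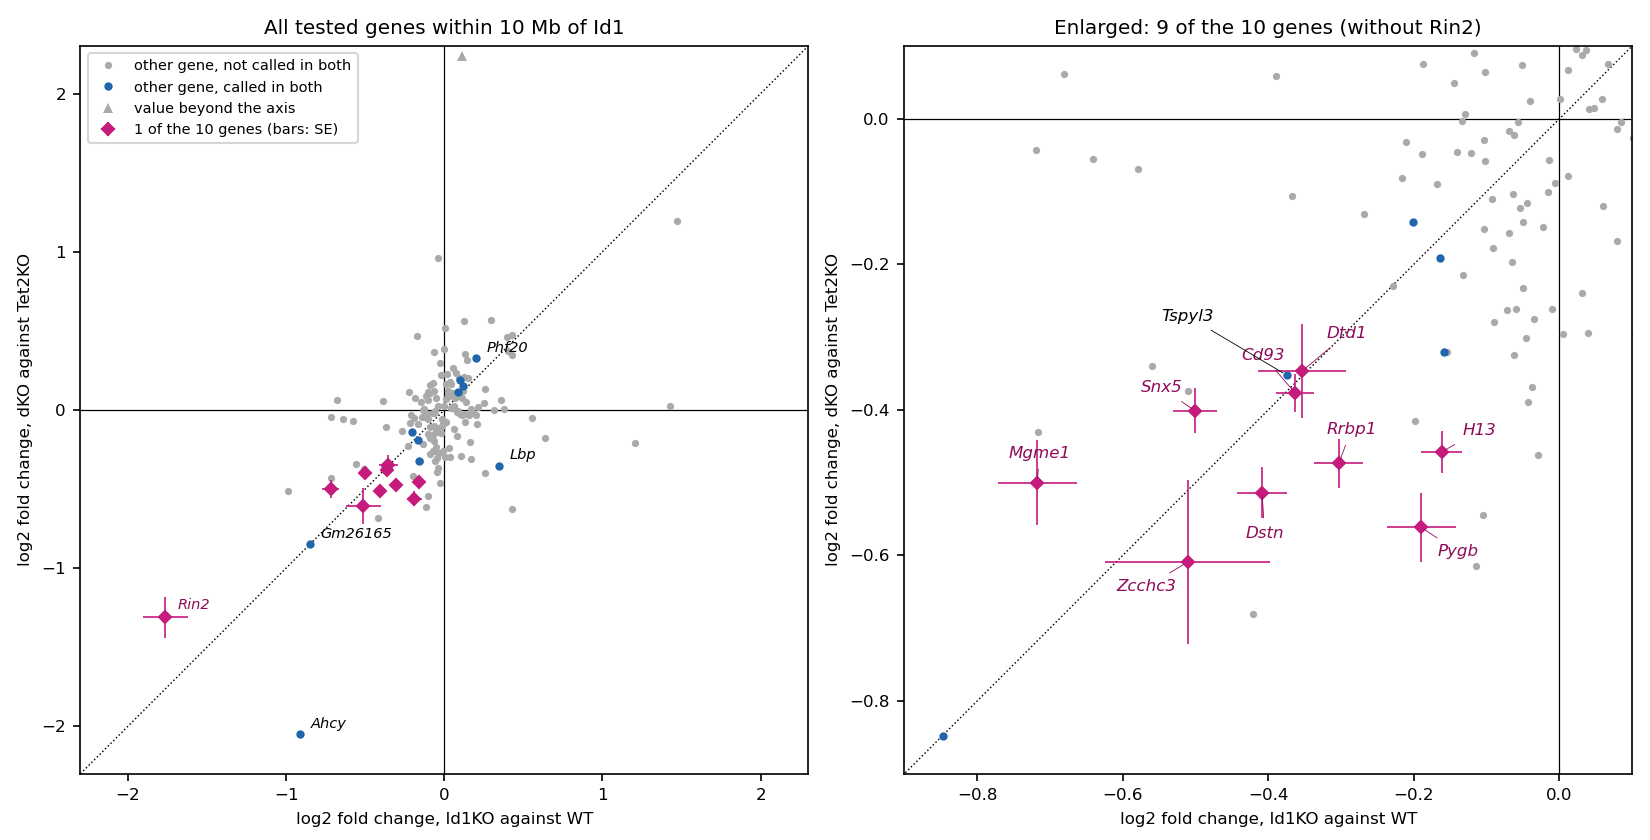
Log2 fold change of Id1KO against WT (horizontal) and of dKO against Tet2KO (vertical) for the tested genes within 10 Mb of Id1; diamonds with SE bars are the 10 genes, blue points other genes called in both, grey points the rest, and the right panel enlarges 9 of the 10. The 10 diamonds lie at the lower left, Rin2 at -1.77 and -1.31; the triangle is Myh7b, whose vertical value of 4.50 is beyond the axis.

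The comparisons of the Tet2 label are not those that chose the genes and were tested, but they rest on the same libraries, so their p-values are not independent of that choice. In Tet2KO against WT, 6 of the 10 were called, where 32.8% of all tested genes were (16.2% lower, 16.6% higher): Snx5 and Mgme1 fell, and Rrbp1, Cd93, Pygb and H13 rose. By edgeR's quasi-likelihood test with Benjamini-Hochberg adjustment over all tested genes, Pygb rose by 0.33 on the log2 scale (SE 0.0458, adjusted p = 1.25e-05), H13 by 0.31 (SE 0.028, adjusted p = 6.23e-08), Cd93 by 0.21 (SE 0.0257, adjusted p = 3.8e-06) and Rrbp1 by 0.13 (SE 0.033, adjusted p = 0.00515). Snx5 fell by 0.19 (SE 0.03, adjusted p = 6.39e-05) and Mgme1 by 0.21 (SE 0.0524, adjusted p = 0.00365). All 3 Tet2KO libraries lay on the same side of all 3 WT libraries in each of these 6, and in Dtd1 and Rin2, which were not called. The share of all tested genes separated in this way was not counted, so nothing is read from that. Dstn had a log2 fold change of -0.00 (adjusted p = 0.968), Dtd1 -0.12 (adjusted p = 0.125), Rin2 0.25 (adjusted p = 0.097) and Zcchc3 0.22 (adjusted p = 0.117). Without Tet2KO replicate 2, Zcchc3 was called at 0.32 (adjusted p = 0.0331).

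In dKO against Id1KO, 3 of the 10 were called, where 19.3% of all tested genes were (8.7% lower, 10.6% higher). Cd93 rose by 0.19 (SE 0.0262, edgeR adjusted p = 2.17e-05), with all dKO libraries above all Id1KO libraries. Rin2 rose by 0.70 (SE 0.166, adjusted p = 0.0047), also without overlap; leaving out Id1KO replicate 1 gave 0.57 and an adjusted p of 0.0542. Dstn fell by 0.11 (SE 0.0352, adjusted p = 0.0377), and that call was lost when Id1KO replicate 2 or 3 or dKO replicate 2 or 3 was left out, with adjusted p-values of 0.0569, 0.186, 0.0695 and 0.142. The other 7 had log2 fold changes from -0.12 in Dtd1 to 0.12 in Zcchc3. Snx5 lay at -0.09 with an adjusted p of 0.0535 and no overlap of its libraries; it was called with DESeq2-type size factors (adjusted p = 0.0458), without a filter on low counts (0.0412), without WT replicate 1 (0.0365) and without dKO replicate 2 (0.0273). Of the 10, 1 gene, Cd93, was called in the same direction in both comparisons of the Tet2 label, which share no library; 9.41% of all tested genes were.

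**Figure D3:**
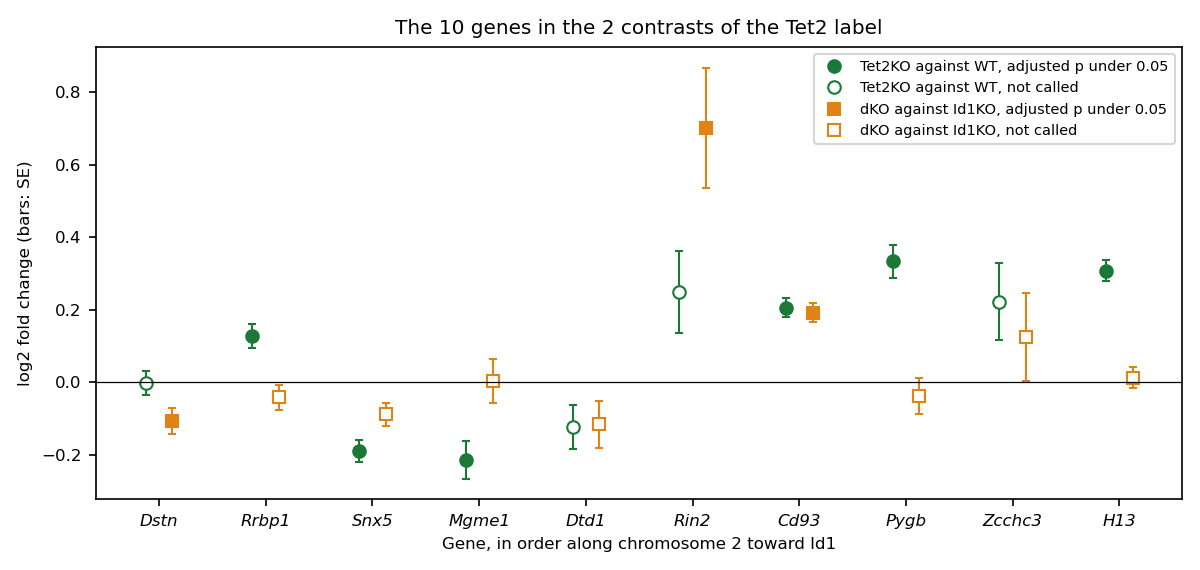
Log2 fold change with SE (vertical axis) of the 10 genes, in order along the chromosome, for Tet2KO against WT (green circles) and dKO against Id1KO (orange squares); filled symbols passed an adjusted p of 0.05. Pygb and H13 are above 0.3 in the first comparison and between -0.04 and 0.02 in the second, while Cd93 is near 0.2 in both.

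Over the whole 10 Mb to either side of Id1, the share of genes called in the Id1 comparisons was above that elsewhere. No test was made of these shares. The 10 genes were picked for being lower in both comparisons, so leaving them out lowers the share of the window by construction. The shares elsewhere keep all their called genes, so nothing is read from the share left without the 10. Of the 160 tested genes there, 23.1% were called in Id1KO against WT and 36.2% in dKO against Tet2KO, and 20 of them, 12.5%, were called in both in the same direction. In the rest of chromosome 2, with 921 tested genes, these shares were 14.9%, 26% and 4.45%. Over all tested genes 5.3% were called in both in the same direction, and over the 20 chromosomes with the X that share ran from 3.85% on chromosome 7 to 6.33% on chromosome 17. Without the 10 genes the window kept 150, of which 18% were called in Id1KO against WT, 32% in dKO against Tet2KO and 6.67% in both in the same direction. The comparison of the Tet2 label called 37.5% of the window for Tet2KO against WT and 16.9%, or 27 genes, for dKO against Id1KO, where the rest of chromosome 2 had 31.6% and 18.2%. Those 27 became 16 without dKO replicate 3 and 17 without Id1KO replicate 3. Around Tet2 itself, with 85 tested genes within 10 Mb, Tet2KO against WT called 29.4% and dKO against Id1KO 20%.

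By distance, the called genes fell as follows; the 10 genes are counted as they were picked, and nothing is read from where they lie. From 10 to 5 Mb before Id1, 8 of 23 tested genes were called in both comparisons in the same direction, and 6 of these 8 are Dstn, Rrbp1, Snx5, Mgme1, Dtd1 and Rin2. Without the 10 genes, 3 of 50 on the lower-coordinate side were called in both, 2 of them in that stretch. Between Dstn and Dtd1, 13 genes were tested, and 10 of them were called in Id1KO against WT and 7 in dKO against Tet2KO. Leaving out the 5 listed genes there, 5 of 8 were called in Id1KO against WT, 4 lower and 1 higher. In dKO against Tet2KO 2 of 8 were called, 1 lower and 1 higher. Over all tested genes 15% and 26.4% were called in these comparisons. Gm26165 and Snord17, which are among the 8, lie inside the span of Snx5 and may not be separate from it. Between Rin2 and Cd93 no gene of 7 was called in either comparison. Between Pygb and Zcchc3, 16 genes were tested and none was called in both, although 7 were called higher in dKO against Tet2KO. The side beyond Id1, with 99 tested genes, had 7 called in both in the same direction, or 7.07%.

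**Figure D4:**
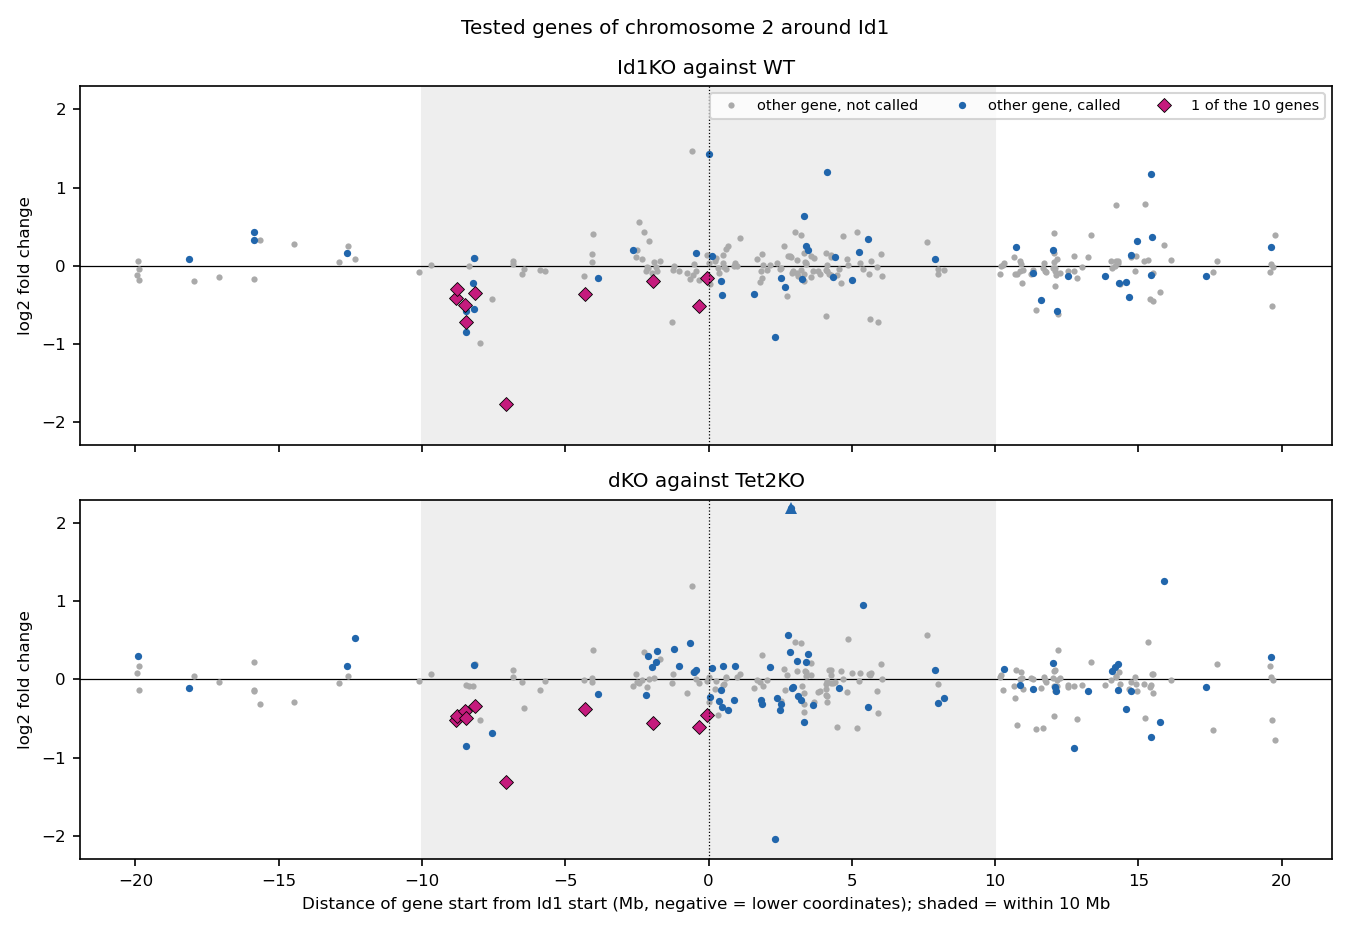
Log2 fold change (vertical axis) of the tested genes of chromosome 2 by distance of their start from that of Id1 in Mb (horizontal axis), for Id1KO against WT (top) and dKO against Tet2KO (bottom); diamonds are the 10 genes, blue points other called genes, grey points the rest, and the grey band marks 10 Mb on either side. Dstn, Rrbp1, Snx5, Mgme1, Dtd1 and Rin2 gather between -8.82 and -7.06 Mb, and the triangle in the lower panel is Myh7b at 4.50.

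**Figure D5:**
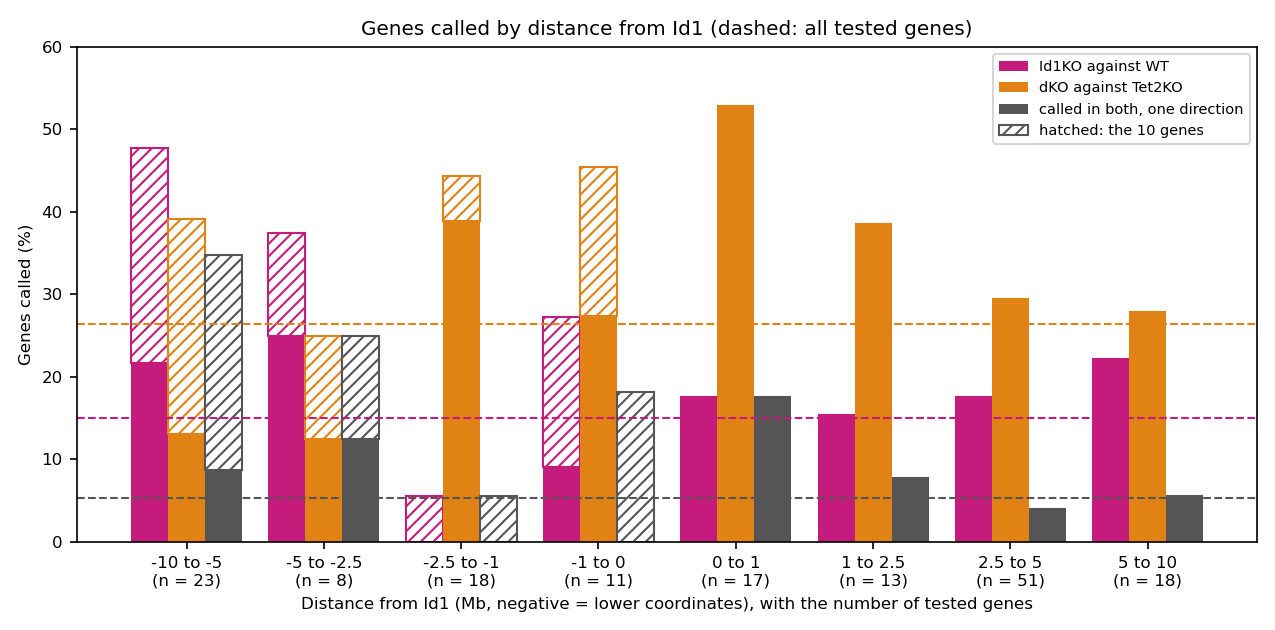
Percent of tested genes called (vertical axis) in bins of distance from Id1 in Mb (horizontal axis, with the number of genes), for each Id1 comparison and for both in the same direction; dashed lines give the share over all tested genes and hatching the part made up by the 10 genes. In the bin from -10 to -5 Mb the share called in both is 34.8% with the 10 genes and 11.8% over the 17 others.

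Another 10 tested genes of the window were called in both Id1 comparisons in the same direction, 6 lower and 4 higher. The 6 include Ahcy, which is counted in the shares above although its fall was not seen once its near copies were added, as given below. Tspyl3, a TSPY-like gene 0.486 Mb beyond Id1, fell from 17.8 ± 0.574 CPM (WT) to 13.8 ± 1.05 (Id1KO) and from 18.4 ± 0.149 (Tet2KO) to 14.4 ± 0.824 (dKO). Its log2 fold changes were -0.37 (SE 0.0676, edgeR adjusted p = 0.000732) and -0.35 (SE 0.0692, adjusted p = 0.000783), near those of Dtd1 and Cd93. Tm9sf4, beside it, fell by 0.20 (adjusted p = 0.00155) and 0.14 (adjusted p = 0.0129). Cst3, which encodes the protease inhibitor cystatin C and lies 3.87 Mb before Id1, fell by 0.16 (adjusted p = 0.00256) and 0.19 (adjusted p = 0.000319). Pigu, an enzyme gene of GPI anchor assembly, fell by 0.16 (adjusted p = 0.0362) and 0.32 (adjusted p = 8.59e-05). Gm26165 is a small gene model inside the span of Snx5 on the same strand. It fell by 0.85 in both (edgeR adjusted p = 0.0362 and 0.0206), on 18 to 61 counts. Its dKO and Tet2KO libraries overlapped, and it was named after its values were seen.

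The 4 higher genes were Phf20, Tpx2, Sec23b and Top1. Phf20, a chromatin reader gene, rose by 0.20 (edgeR adjusted p = 0.00182) in Id1KO against WT and 0.33 (adjusted p = 1.02e-05) in dKO against Tet2KO. Tpx2, a spindle assembly gene 0.112 Mb beyond Id1, rose by 0.12 (adjusted p = 0.0111) and 0.15 (adjusted p = 0.00151). Sec23b, a coat protein gene of transport vesicles that lies between Mgme1 and Dtd1, rose by 0.10 (adjusted p = 0.0253) and 0.19 (adjusted p = 7.57e-05), so genes inside the Dstn to Dtd1 stretch did not all fall. Top1, the DNA topoisomerase I gene, rose by 0.09 (adjusted p = 0.0468) and 0.11 (adjusted p = 0.00783).

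The largest joint change in the window outside the 10 genes was in Ahcy, the S-adenosylhomocysteine hydrolase gene 2.32 Mb beyond Id1. WT held 141 ± 7.14 CPM, Tet2KO 276 ± 6.74, Id1KO 74.8 ± 7.27 and dKO 66.7 ± 3.27. Gm4737 on chromosome 16 is a near copy, 99.7% identical over 2083 bases, and stood at 163 ± 3.52, 5.38 ± 0.888, 220.3 ± 5.68 and 228 ± 5.49 CPM in the same order. Reads of these copies can be assigned to either. With the counts of Ahcy and its copies summed, the log2 fold change was -0.04 (edgeR adjusted p = 0.445) for Id1KO against WT and 0.06 (adjusted p = 0.145) for dKO against Tet2KO, so the fall of Ahcy was not seen in the sum. For the 10 genes, no other gene with counts shared 300 bases or more at 95% identity.

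Snord17, Rbbp9, Polr3f and Slc24a3, which lie between the starts of Snx5 and Rin2, were added after their values were seen. Snord17, a small nucleolar RNA gene inside Snx5, stood at 35.5 ± 2.36 CPM in WT and 23.8 ± 2.33 in Id1KO (log2 fold change -0.58, edgeR adjusted p = 4.67e-06). It stood at 33.8 ± 0.691 CPM in Tet2KO and 32.2 ± 2.02 in dKO (log2 fold change -0.07, adjusted p = 0.483), and unlike its host gene it was called in 1 of the 2 comparisons. Rbbp9 had log2 fold changes of -0.56 (adjusted p = 0.00588) and -0.34 (adjusted p = 0.0703). Polr3f had -0.22 (adjusted p = 0.00522) and -0.08 (adjusted p = 0.277). Slc24a3, the tested gene before Rin2, had -0.42 (adjusted p = 0.0915) and -0.68 (adjusted p = 0.00527).

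Named genes next to the 10 Mb edges changed little, apart from Chd6 in dKO against Tet2KO. Snrpb2, 9.67 Mb before Id1 and just inside, had log2 fold changes of 0.01 (edgeR adjusted p = 0.904) and 0.07 (adjusted p = 0.363). Kif16b, 10.1 Mb before Id1 and just outside, had -0.08 (adjusted p = 0.238) and -0.02 (adjusted p = 0.762). On the other side, Chd6 at 8.21 Mb had -0.05 (adjusted p = 0.317) and -0.23 (adjusted p = 1.51e-05), and Srsf6 at 10.2 Mb had -0.01 (adjusted p = 0.9) and 0.06 (adjusted p = 0.0672). Bcl2l1, the survival gene that starts 44.4 kb beyond Id1 and was added after its values were seen, had -0.23 in both (adjusted p = 0.063 and 0.0434).

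Partners that work in the same processes as the 10 were called in the Id1 comparisons at shares near those of all tested genes. The 10 lists of partners held 79 tested genes without the 10 genes themselves. In Id1KO against WT 7 were lower and 7 higher, 17.7% together against 15% of all tested genes. In dKO against Tet2KO 11 were lower and 8 higher, 24.1% against 26.4%, and the median log2 fold change was -0.01 in both. The 3 lower in both comparisons were Cap1, an actin turnover partner of destrin; Ckap4, a reticulum membrane protein like Rrbp1; and Phkb, a subunit of the kinase that switches on glycogen phosphorylase. Syvn1, the ubiquitin ligase of reticulum degradation, and Rabgef1, another Rab5 exchange factor, were higher in both. Of the E proteins Tcf3, Tcf4 and Tcf12 and their partners Tal1 and Lyl1, Tal1 was called, higher by 0.13 (edgeR adjusted p = 0.00436) and 0.26 (adjusted p = 5e-06). For the Tet2 label, 19 partners were lower and 14 higher in Tet2KO against WT, 24.1% and 17.7% against 16.2% and 16.6% of all tested genes. In dKO against Id1KO 13 were lower and 8 higher, 16.5% and 10.1% against 8.7% and 10.6%.

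Some values show the scale of these changes. Ckap4 fell from 85.6 CPM in WT to 70.8 in Id1KO (log2 fold change -0.28, edgeR adjusted p = 1.63e-05) and from 85.7 in Tet2KO to 77.0 in dKO (-0.16, adjusted p = 0.00262). Cap1 fell by 0.10 (adjusted p = 0.00865) and 0.16 (adjusted p = 0.000119). Syvn1 rose by 0.30 (adjusted p = 0.000179) and 0.15 (adjusted p = 0.0338). Rin3, Pygl, Snx1 and Snx6 were named as close relatives of the 10 after their values were seen. Of the other Rab5 exchange factors, Rin3 had a log2 fold change of -0.01 (adjusted p = 0.852) in Id1KO against WT and fell by 0.27 (adjusted p = 1.42e-05) in dKO against Tet2KO. Pygl, the liver form of glycogen phosphorylase, had -0.07 (adjusted p = 0.168) and fell by 0.34 (adjusted p = 2.5e-07). Snx1, whose protein pairs with Snx5 on endosomes, had -0.03 (adjusted p = 0.659) and rose by 0.14 (adjusted p = 0.00569). Snx6, the close relative of Snx5, rose by 0.20 (adjusted p = 0.0257) and fell by 0.26 (adjusted p = 0.00446).

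The nearest pattern to each gene, by the root mean square difference of mean-centred log2 CPM over the 12 libraries, mostly lay on another chromosome. Chromosome 2 held 1081 of the 14346 tested genes, so most candidates lay elsewhere and nothing is read from this. It was Snx5 for its neighbour Mgme1 (difference 0.0941). It was Entpd4b for Dstn (0.0565), Nfkbie for Rrbp1 (0.0515), Cd52 for Snx5 (0.0731), Tnfrsf26 for Dtd1 (0.0728) and Dnah8 for Cd93 (0.0606). It was Hlf for Pygb (0.0694), Sh3pxd2a for Zcchc3 (0.104), Tspoap1 for H13 (0.0580) and, at a greater distance, Hist1h2br for Rin2 (0.279). Dstn was the second nearest to Snx5 and H13 the second nearest to Pygb.

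Summed markers of several progenitor types shifted with the same labels, and their part in the result was not tested. A sum follows its most abundant genes, so medians over the tested genes of a list are given beside it. Summed stem and multipotent markers (10 tested, none at 0) read 585 to 595 CPM (WT) and 655 to 666 (Tet2KO), against 531 to 537 (Id1KO) and 516 to 527 (dKO). Of these 10, 2 were called lower and 1 higher in Id1KO against WT, and 6 lower in dKO against Tet2KO, with Flt3 and Cd34 lower in both. The median log2 fold change of the stem list was 0.10 in Id1KO against WT, unlike its sum, and -0.28 in dKO against Tet2KO. Neutrophil granule markers (10 tested) read 14080 to 14140 and 15560 to 15800 CPM in WT and Tet2KO, against 11830 to 12810 and 11650 to 12840 in Id1KO and dKO. Of them 2, Elane and Mpo, were lower in both Id1 comparisons, and 5 were lower and 3 higher in dKO against Tet2KO. The median log2 fold change of the neutrophil list was -0.06 in Id1KO against WT and -0.12 in dKO against Tet2KO.

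Lymphoid markers (12 genes, 10 tested) read 197 to 205 (WT) and 223 to 227 CPM (Tet2KO), against 179 to 184 (Id1KO) and 159 to 172 (dKO). In the 2 Id1 comparisons 1 and 6 of them were called lower, where 7.77% and 13.4% of all tested genes were. The medians of the lymphoid list were -0.22 and -0.60, and those of the stromal and endothelial list below -0.04 and -0.41. Stromal and endothelial markers (10 genes, 5 tested, Col3a1 at 0) read 142 to 145 and 135 to 138 CPM, against 120.5 to 126 and 112 to 119, with 1 and 2 called lower. Pecam1, which blood progenitors also express, made up most of that sum. Erythroid markers (14 tested) read 956 to 967 CPM in Tet2KO and 1590 to 1810 in the other 3 groups, and 13 were called higher in dKO against Tet2KO. Monocyte and dendritic markers (9 tested) read 1361 to 1370 CPM in Id1KO, below the 1527 to 1568 of WT, and 1667 to 1683 in dKO, above the 1584 to 1606 of Tet2KO. Of these 9, 7 were called lower and 1 higher in Id1KO against WT, and 3 lower and 2 higher in dKO against Tet2KO. Megakaryocyte markers (7 tested) read 222 to 234 CPM in Id1KO and 155 to 177 in the other groups. Of these 7, 3 were called higher in Id1KO against WT, and 1 lower and 1 higher in dKO against Tet2KO. The medians in the 2 Id1 comparisons were 0.03 and 0.88 for the erythroid list and 0.42 and 0.08 for the megakaryocyte list. Those of the monocyte and dendritic list were -0.20 and -0.07, the second unlike its sum.

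The libraries also differed in sex-linked RNA. Xist averaged 262 CPM (WT), 10.8 (Tet2KO), 64.9 (Id1KO) and 16.7 (dKO), and Y-linked Ddx3y 48.9, 87.8, 93.4 and 82.1 CPM in the same order. Xist was lower in Id1KO than in WT and higher in dKO than in Tet2KO (log2 fold change -2.02, edgeR adjusted p = 3.67e-18, and 0.62, adjusted p = 3.02e-05). The part of sex in the values of the 10 genes was not tested.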

How the data were processed

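The authors deposited estimated counts per gene, made with STAR and RSEM on mm10, per the submitters' processing notes; versions, the annotation and the strand setting are not given in the sources used here. Per the labels' protocols, RNA was extracted with a Qiagen micro kit and libraries were made with Illumina's stranded total RNA kit after ribosomal RNA removal. Estimated counts were rounded to whole numbers. All 55450 gene IDs matched GENCODE M21 on GRCm38, the source of coordinates and exon lengths.

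Genes passing filterByExpr with a minimum count of 10 were kept, TMM-normalised and fitted in 1 edgeR quasi-likelihood model over the 4 genotypes (R 4.3.3, edgeR 4.0.16), with Benjamini-Hochberg adjustment over 14346 genes and a threshold of 0.05; DESeq2 1.42.0 was an alternative. CPM use TMM library sizes. On simulated data, 198 of 200 genes changed 2-fold in Id1KO against WT were recovered, with 9 false calls among 14202 genes. The simulation took its spread from these libraries and held no smaller changes. It therefore does not bear on changes below 2-fold or on the spread between animals.

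The 10 genes, the gene lists and the tests were chosen with earlier results of these data known. Beyond the 10, genes were named if called in both Id1 comparisons within 10 Mb and not a gene model, nearest the 10 Mb edges, or in a partner list and called in both. All 12 pairs of libraries within a genotype differed by more than sampling noise, which does not tell whether they came from separate animals. The common coefficient of variation between libraries of a genotype, beyond counting noise, was 0.0305 in the fit.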

Additional observations from a re-analysis of the deposited data

Results flagged for a closer look

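By edgeR's interaction test, the change with the Id1 label differed between the Tet2-intact and the Tet2-null background for 35 of the 150 tested genes of the window outside the 10, 23.3% against 14.5% of all tested genes. Id1 and the genes called in both Id1 comparisons that passed, Ahcy and Lbp, are given here; they were not taken for the size of the difference. Of the other named genes, Chd6 (-0.18, adjusted p = 0.00805) and Snord17 (0.51, adjusted p = 0.000926) also passed. Id1 itself had a difference of -1.40 on the log2 scale (SE 0.227, adjusted p = 0.000301): it was 1.43 higher in Id1KO than in WT and differed by 0.03 between dKO and Tet2KO. Ahcy had a difference of -1.14 (SE 0.073, adjusted p = 1.05e-09), with its reads divided between near copies as described above. Lbp, which encodes a binding protein for bacterial lipopolysaccharide and lies 5.57 Mb beyond Id1, had a difference of -0.70 (SE 0.0547, adjusted p = 2.55e-08). Lbp averaged 47.6 ± 1.04 CPM in WT, 60.5 ± 1.38 in Id1KO, 80.2 ± 3.34 in Tet2KO and 62.8 ± 0.721 in dKO, so Id1KO lay above WT and dKO lay below Tet2KO. It was the 1 gene of the window called in both comparisons in opposite directions.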

How the results depend on the processing

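All 360 alternative values of the 10 genes in the Id1 comparisons stayed below 0. The 10 genes were picked for being lower in these comparisons, so this supports nothing further. In the Tet2 comparisons 348 of 360 kept their direction and side of the threshold, 6 lost a call, 6 gained one and none reversed. Over all genes, calls in Id1KO against WT went from 2156 to 1418 with DESeq2 and 1085 at an adjusted p under 0.01, and interaction calls from 2078 to 1350 and 972. At 0.01, dKO against Tet2KO had 2285 calls in place of 3793, Tet2KO against WT 3122 in place of 4699, and dKO against Id1KO 1599 in place of 2762. Near Id1, dKO against Id1KO went from 27 to 14 at 0.01, and interaction calls from 38 to 25 with DESeq2 and 16 at 0.01.

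The libraries of a genotype were also summed to 1 sample, which leaves 4 samples. An additive model then gave 1 effect for the Id1 label and 1 for the Tet2 label, so the comparisons within a label were not fitted separately. For either label 0 of the 10 genes were called. The Id1 label then had 7 calls over all genes and 0 near Id1, and the Tet2 label 232 and 1. The share called near Id1 in dKO against Tet2KO was 45.8% within 2 Mb. The share called in both Id1 comparisons in 1 direction was 21.7% on the lower-coordinate side, 7.07% on the other and 6.67% without the 10 genes. Ahcy summed with its copies, a rule set after seeing the data in place of planned sums over 100-base matches, which were not run, gave log2 fold changes of -0.04 in Id1KO against WT, 0.061 in dKO against Tet2KO, -0.10 in Tet2KO against WT and, for dKO against Id1KO, -0.00.

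Leaving out 1 library at a time gave 16 (without dKO replicate 3) to 28 calls near Id1 in dKO against Id1KO, with 17 without Id1KO replicate 3. In both Id1 comparisons 10 of the 10 genes were called each time, which follows from how they were picked. Over all tested genes these fits made 1512 to 2386 calls in Id1KO against WT and 2951 to 3847 in dKO against Tet2KO. Replicate numbers did not pair libraries: 7 of 18 same-numbered pairs had a correlation of deviations over 0.1 (range -0.282 to 0.307). With the replicate number as a block, the 5 tests made 1952, 3592, 4523, 2576 and 1871 calls over all genes, and 10, 10, 6, 2 and 3 of the 10 genes; Dstn lost its call in dKO against Id1KO (adjusted p = 0.0562).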
